A study of Mus musculus with 12 samples.

Results

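The 9 genes described here encode factors that carry mature mRNA out of the nucleus: Nxt1, Nxf1, Alyref, Ddx39b, Thoc1, Thoc2, Thoc5, Thoc6 and Thoc7. They were taken by gene symbol from a table of 15803 mRNAs, each represented by a single transcript that was read in 1 or more libraries. Nxt1 entered the group because its translation efficiency (TE, footprints relative to RNA) stood out at 21 h, so its 21 h values are a description with no p-value, and where a count at 21 h includes it, its choice put it there. The other 8 genes were added because they act in the same step of gene expression. All 9 had reads in all 12 libraries and passed the filter on low values in both assays.

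The libraries came from KPC cells, a single mouse pancreatic ductal adenocarcinoma (PDAC) line from a tumor of a mouse carrying, among its alleles, Trp53 LSL-R172H and Pdx1-Cre, the latter of which drives recombination in pancreatic cells. Cells received 20 μM cisplatin (Cis), a platinum drug that crosslinks DNA, for 6 or 21 h, or PBS as the untreated control, and were lysed in cycloheximide (CHX), which holds ribosomes on mRNA. Ribosome profiling sequenced the RNA fragments that ribosomes protect from RNase (footprints), and RNA-seq measured the mRNA itself. In each assay, PBS, 6 h of Cis and 21 h of Cis were represented by 2 libraries apiece. The duration of PBS treatment is not labelled, the same PBS libraries served both time points, and no label says that replicates were separate cultures, so the p-values measure the spread between these libraries, which may be technical.

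Export begins while an mRNA is still being made and spliced. The THO complex, which includes Thoc1, Thoc2, Thoc5, Thoc6 and Thoc7, joins the RNA helicase Ddx39b and the adaptor Alyref to form the TREX complex on the transcript. TREX then hands the mRNA to the export receptor, a heterodimer of Nxf1 and Nxt1, which takes it through the nuclear pore.

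Footprint libraries held 3375480 to 5204127 reads and RNA-seq libraries 1985344 to 2901692. Values are RPKM, the reads of a gene scaled by its length and by the total of the library, with the coding sequence as the length for footprints and the full transcript for RNA. They are shares of a library, and fewer cells of a type and less RNA per cell cannot be told apart. A rise is therefore a rise in share and need not be a rise in amount per cell. By puromycin labelling, the paper reports that Cis lowered protein synthesis, a change in total that RPKM cannot show. Keratin genes of duct-like epithelium were abundant in all libraries (Krt8, Krt18 and Krt19, 1570 to 4949 footprint RPKM), as was the mesenchymal marker Vim (2867 to 3862). The other mesenchymal marker read, Zeb1, was low, at 2.56 to 9.17 footprint RPKM. Of the other epithelial markers, Cdh1 had 88.3 to 146.8 footprint RPKM and Epcam did not exceed 1.83. Of the markers of other cell types, Cd3e and Cpa1 had no read, and Ptprc, Pecam1, Cdh5 and Pdgfra reached at most 0.54 RPKM in footprints. The rest of the leukocyte, fibroblast and acinar markers read for this check did not exceed 6.12.

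Nxt1 (ENSMUSG00000036992) is the small partner of Nxf1 that stabilizes the receptor and its contacts with the pore. Its listed transcript has a coding sequence of 140 codons. Nxf1 (ENSMUSG00000010097) binds the mRNA and the nucleoporins and has 618 codons. The 250 bases upstream of their transcription starts are shown, since the footprints of both genes were higher at 21 h. They come from the RefSeq promoter table on GRCm38.p6, which held 8 of the 9 genes (Thoc1 had no entry), and are written 5′ to 3′ on the strand of the gene. For Nxt1, Nxf1 and Thoc7, 2 starts were listed, and only the window of the more upstream was searched. Motifs and distances depend on that choice. The Nxt1 region lies on the plus strand at chr2:148672365-148672614 and the Nxf1 region on the plus strand at chr19:8756853-8757102. Capitals mark, on either strand, CCAAT (the CCAAT box), GGGCGG (the GC box) and CCGGAAGT (the core of an ETS site), which do not overlap one another here.
Nxt1: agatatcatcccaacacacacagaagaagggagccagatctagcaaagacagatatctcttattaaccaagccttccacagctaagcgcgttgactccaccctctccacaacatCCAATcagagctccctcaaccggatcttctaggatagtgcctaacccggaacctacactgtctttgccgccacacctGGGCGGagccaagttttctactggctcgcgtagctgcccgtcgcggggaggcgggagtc
Nxf1: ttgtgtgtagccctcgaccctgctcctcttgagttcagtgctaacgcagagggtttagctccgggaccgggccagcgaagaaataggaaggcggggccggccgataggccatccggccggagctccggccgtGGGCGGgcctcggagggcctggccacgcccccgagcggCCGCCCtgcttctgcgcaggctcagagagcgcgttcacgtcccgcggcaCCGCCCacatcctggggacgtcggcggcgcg
Nxt1 held a CCAAT box 136 bases and a GC box 59 bases before the start, and Nxf1 held 3 GC boxes, 118, 80 and 31 bases before it. Of 32851 mouse promoter windows in the table, 33.8% held a CCAAT box, 32.7% a GC box and 2.88% the ETS core, so the first pair of motifs is common. These shares count every listed start, unlike the single window per gene used here. Among the 8 genes, the GC box was found in 5, the CCAAT box in 3 and the ETS core in 2. A match describes the letters only and is no evidence of binding.

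Nxt1 footprints rose at 6 h and lay higher again at 21 h, while its RNA lay below the PBS libraries at both times. Footprints were 57.2 and 55.2 RPKM in the PBS libraries, on 125 and 108 reads. At 6 h they were 85.3 and 76.9 RPKM (168 and 109 reads), and at 21 h 114.3 and 128.2 RPKM (177 and 188 reads). The 3 groups did not overlap. The mean rose from 56.2 ± 1.43 RPKM in the PBS libraries to 81.1 ± 5.92 after 6 h of Cis, and was 121.2 ± 9.78 after 21 h (SD, n = 2). Relative to PBS, the log2 change at 6 h was 0.51 (limma, SE 0.10, adjusted p = 0.0484 after Benjamini-Hochberg correction over all mRNAs tested). This test shares its PBS libraries with the contrast for which Nxt1 was chosen. It lies at the threshold: the adjusted p ranged from 0.0236 to 0.240 over 17 alternatives and exceeded 0.05 in 9 of them, among them the removal of PBS replicate 1 (0.151), PBS replicate 2 (0.164), 6 h replicate 1 (0.240) or 6 h replicate 2 (0.216) of the footprint libraries. The size of the change was steadier, at 0.44 to 0.58 over the same alternatives. At 21 h the log2 change was 1.06, which ranked 421 of 10383 mRNAs from the top.

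Nxt1 RNA was 15.3 and 13.3 RPKM with PBS, 10.8 and 11.6 at 6 h and 13.1 and 11.6 at 21 h. All 4 treated libraries lay below both PBS libraries. These values rest on only 24 to 43 reads per library, fewer than the 108 to 188 footprint reads. The log2 change was -0.26 at 6 h (limma, adjusted p = 0.567, SE 0.17, 95% confidence interval -0.64 to 0.11), which did not pass, and -0.28 at 21 h.

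The ratio of footprint to RNA RPKM for libraries with the same replicate number was 3.74 and 4.15 with PBS, 7.87 and 6.60 at 6 h, and 8.74 and 11.1 at 21 h. No label says that the numbers pair the libraries, so each ratio is a display of the values and is not taken as a matched measurement. TE was therefore tested as the difference between the footprint change and the RNA change in a single model of all 12 libraries. At 6 h the log2 change in TE of Nxt1 was 0.77 (limma, adjusted p = 0.271, SE 0.19, 95% confidence interval 0.37 to 1.18), which did not pass, although 2.88% of the 9295 mRNAs tested had a larger change. This contrast, like that of its RNA at 6 h, shares its PBS libraries with the contrast for which Nxt1 was chosen. Its size, interval and rank are therefore no independent support. At 21 h the change that led to its choice was 1.35, rank 36 of 9295. Both assays contributed to that value, with a footprint change of 1.06 and an RNA change of -0.28.

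**Figure D1:**
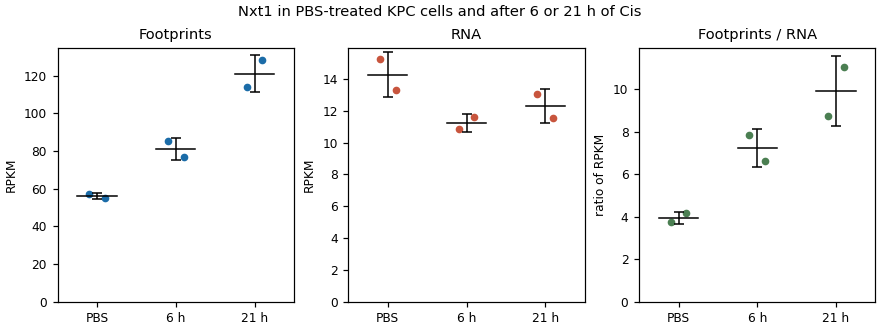
Nxt1 in each library: footprint RPKM, RNA RPKM and the ratio of both (vertical axes, starting at 0) with PBS and after 6 or 21 h of Cis (horizontal axis). Points are libraries, bars the mean ± SD (n = 2). The footprint points climb from 55.2 to 57.2 RPKM with PBS to 114.3 and 128.2 at 21 h, while the RNA points stay between 10.8 and 15.3 RPKM.

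Nxf1, the other component of the receptor, had more footprints than with PBS at 21 h. Its footprints were 57.8 and 69.0 RPKM with PBS, 63.0 and 67.1 at 6 h, and 82.7 and 83.9 at 21 h. The 6 h libraries lay within the range of the PBS libraries and the 21 h libraries above it. The rise at 21 h was 0.36 on the log2 scale (limma, SE 0.12, adjusted p = 0.0385). The PBS libraries differed from each other, and without PBS replicate 1 the change was 0.21 (adjusted p = 0.210 from limma), with the call lost under 9 of 17 alternatives. The difference between 21 h and 6 h did not pass (adjusted p = 0.0609 from limma). Nxf1 RNA was 18.7 and 14.8 RPKM with PBS, 16.5 and 13.6 at 6 h, and 21.8 and 22.0 at 21 h. The 21 h libraries lay above the rest, but neither RNA change passed.

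Within single libraries, the footprints of Nxt1 relative to those of Nxf1 are free of the scaling between libraries. This ratio was 0.99 and 0.80 with PBS, 1.35 and 1.15 at 6 h and 1.38 and 1.53 at 21 h. All treated libraries had more Nxt1 than Nxf1 footprints per length, and both PBS libraries fewer. In RNA the ratio lay below 1 in all 6 libraries, at 0.82 and 0.90 with PBS, 0.66 and 0.86 at 6 h and 0.60 and 0.53 at 21 h. The ratio mixes the changes of both genes and, with PBS and at 21 h, includes the values for which Nxt1 was chosen.

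Alyref (ENSMUSG00000025134), the adaptor through which TREX contacts Nxf1, had the most footprints of the 9 genes in all groups. At 21 h its footprints and its RNA both rose. Footprints were 462.7 and 449.3 RPKM with PBS, 443.0 and 453.1 at 6 h, and 546.1 and 573.0 at 21 h, on 1170 to 1842 reads. The PBS and 6 h libraries overlapped and the 21 h libraries lay above both groups. The rise was 0.26 on the log2 scale (limma, SE 0.07, adjusted p = 0.0224). It was lost under 7 of 17 alternatives, with an adjusted p of 0.0539 to 0.0834 (limma) when PBS replicate 1 or 2, 6 h replicate 1 or 2, or 21 h replicate 2 was left out, and a change of 0.23 to 0.30 throughout.

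Alyref RNA was 24.3 and 25.0 RPKM with PBS, 26.4 and 30.2 at 6 h, and 38.3 and 43.9 at 21 h. The 3 groups did not overlap. The rise at 21 h was 0.64 on the log2 scale (limma, SE 0.12, adjusted p = 0.00547) and passed under all 17 alternatives run for it (highest adjusted p = 0.0408 from limma). The footprint-to-RNA ratio was 19.0 and 18.0 with PBS, 16.8 and 15.0 at 6 h, and 14.2 and 13.0 at 21 h. The ratios did not overlap between groups, but the change in TE at 21 h did not pass (adjusted p = 0.244 from limma). The Alyref promoter, shown because both measures of this gene rose, lies on the minus strand at chr11:120598366-120598615 (GRCm38.p6) with the same motifs in capitals.
Alyref: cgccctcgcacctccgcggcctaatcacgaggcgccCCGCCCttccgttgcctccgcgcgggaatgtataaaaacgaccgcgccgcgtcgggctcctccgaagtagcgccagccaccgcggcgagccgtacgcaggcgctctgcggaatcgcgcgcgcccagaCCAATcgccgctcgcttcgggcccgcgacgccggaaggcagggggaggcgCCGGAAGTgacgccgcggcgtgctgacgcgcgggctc
It held an ETS core 37 bases, a CCAAT box 87 bases and a GC box 214 bases before the start, all 3 of the motifs searched.

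Ddx39b (ENSMUSG00000019432), the ATP-dependent helicase that loads Alyref on the mRNA, followed Alyref in footprint level in all groups. Footprints were 267.6 and 247.3 RPKM with PBS, 226.1 and 226.8 at 6 h, and 292.4 and 311.3 at 21 h. The 6 h libraries lay below and the 21 h libraries above both PBS libraries. Its RNA had the same order, with 29.7 and 29.0 RPKM with PBS, 27.2 and 25.2 at 6 h, and 39.6 and 37.8 at 21 h. Neither time point passed against PBS in footprints (adjusted p = 0.203 and 0.0878 from limma) or in RNA (0.804 and 0.0886). Between the time points the differences were larger. Ddx39b at 21 h exceeded 6 h by 0.39 on the log2 scale in footprints (limma, SE 0.08, adjusted p = 0.00781) and by 0.40 in RNA (limma, SE 0.12, adjusted p = 0.0476). The RNA call was lost under 11 of 17 alternatives, including the removal of any of the 6 RNA libraries, with an adjusted p of up to 0.201 (limma, without 21 h replicate 1). The footprint call was lost without 6 h replicate 1 (0.0566) or 2 (0.0576). The footprint-to-RNA ratio stayed between 7.37 and 9.02 in all pairs of libraries. RNA RPKM is divided by the whole transcript, which includes 1370 bases of 5′ untranslated sequence for Ddx39b and 2735 bases of 3′ untranslated sequence for Alyref, so ratios are compared between conditions and not between genes.

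The THO subunits had lower levels than the helicase and the adaptor, and none of the 5 passed against PBS in footprints. Thoc2 (ENSMUSG00000037475), the large scaffold subunit, had 15.3 and 14.8 footprint RPKM with PBS, 10.9 and 11.3 at 6 h, and 11.7 and 12.3 at 21 h. All 4 treated libraries lay below both PBS libraries, but neither change passed (adjusted p = 0.142 and 0.0925 from limma). Limma's voom on the reads recovered from the RPKM called Thoc2 lower at both times. It called 729 of 10383 mRNAs lower at 6 h and 2392 at 21 h, against 103 and 2101 in the main fit. Its RNA was 12.6 and 11.8 RPKM with PBS, 11.6 and 13.5 at 6 h, and 11.1 and 11.3 at 21 h, the 21 h libraries being slightly below the others. The ratio of its footprints to its RNA was 1.22 and 1.25 with PBS, 0.94 and 0.84 at 6 h and 1.05 and 1.09 at 21 h.

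Thoc1 (ENSMUSG00000024287), a core subunit also known as a binding partner of the retinoblastoma protein, had its lowest values at 6 h. Footprints were 31.1 and 34.7 RPKM with PBS, 24.1 and 23.7 at 6 h, and 36.2 and 35.2 at 21 h. Its RNA was lowest there too, with 6.48 and 4.67 RPKM with PBS, 2.68 and 3.35 at 6 h, and 5.40 and 6.02 at 21 h. The 6 h RNA values rest on only 22 and 32 reads. In both assays the 6 h libraries lay below all others. Against PBS, the 6 h values did not pass in footprints (adjusted p = 0.0871 from limma) or in RNA (0.322). From 6 to 21 h, the footprints differed by 0.54 on the log2 scale (limma, SE 0.12, adjusted p = 0.0111), a call lost without 6 h replicate 1 (0.0540) or 2 (0.0647). The RNA difference did not pass (adjusted p = 0.0827 from limma). Thoc1 overlaps the protein-coding gene Usp14 in the annotation, and whether the counting used strand is not stated.

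Thoc7 (ENSMUSG00000053453), a small subunit that pairs with Thoc5 in the complex, had more RNA at 21 h without more footprints. RNA was 10.4 and 9.93 RPKM with PBS, 16.1 and 11.6 at 6 h, and 18.3 and 16.8 at 21 h, on 24 to 40 reads. The rise at 21 h was 0.68 on the log2 scale (limma, SE 0.18, adjusted p = 0.0257). It was lost under 8 of 17 alternatives, with an adjusted p of 0.0895 without PBS replicate 1, 0.121 without PBS replicate 2, 0.121 without 21 h replicate 1 and 0.0566 without 21 h replicate 2 (limma). Footprints were 64.4 and 65.6 RPKM with PBS, 63.0 and 68.3 at 6 h, and 70.0 and 62.2 at 21 h. These groups overlapped, and the 95% confidence interval of the footprint change at 21 h was -0.25 to 0.23. The ratio was 6.19 and 6.60 with PBS, 3.91 and 5.91 at 6 h, and 3.82 and 3.69 at 21 h, all treated pairs being below both PBS pairs, and the change in TE did not pass at 21 h (adjusted p = 0.222 from limma). Thoc7 overlaps the protein-coding genes Atxn7 and Gm11100, so its values carry the same doubt about strand. Its promoter is shown as the counterpart of the Alyref promoter, the other gene with more RNA at 21 h, and lies on the minus strand at chr14:13961853-13962102 (GRCm38.p6).
Thoc7: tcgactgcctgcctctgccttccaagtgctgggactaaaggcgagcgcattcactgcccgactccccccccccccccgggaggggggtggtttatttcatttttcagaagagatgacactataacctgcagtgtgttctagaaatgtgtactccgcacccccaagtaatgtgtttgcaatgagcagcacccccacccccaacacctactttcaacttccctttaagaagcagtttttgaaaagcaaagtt
None of the 3 motifs occurs in this window, which belongs to the more upstream of 2 listed starts. Their absence says nothing about the factors that bind them.

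Thoc5 (ENSMUSG00000034274) and Thoc6 (ENSMUSG00000041319), the remaining subunits, passed in no comparison. Thoc5 had 31.5 to 39.9 footprint RPKM over the 6 libraries, with overlapping groups. Its RNA was 10.5 and 9.87 RPKM with PBS, 9.02 and 9.69 at 6 h, and 12.3 and 12.8 at 21 h, the 21 h libraries being above the others. Thoc6 had 15.6 to 22.4 footprint RPKM and 1.34 to 5.13 RNA RPKM, the latter on 4 to 20 reads. Its 95% confidence interval for RNA at 21 h ran from -1.20 to 0.58. Thoc6 overlaps Bicdl2 and Hcfc1r1 in the annotation.

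**Figure D2:**
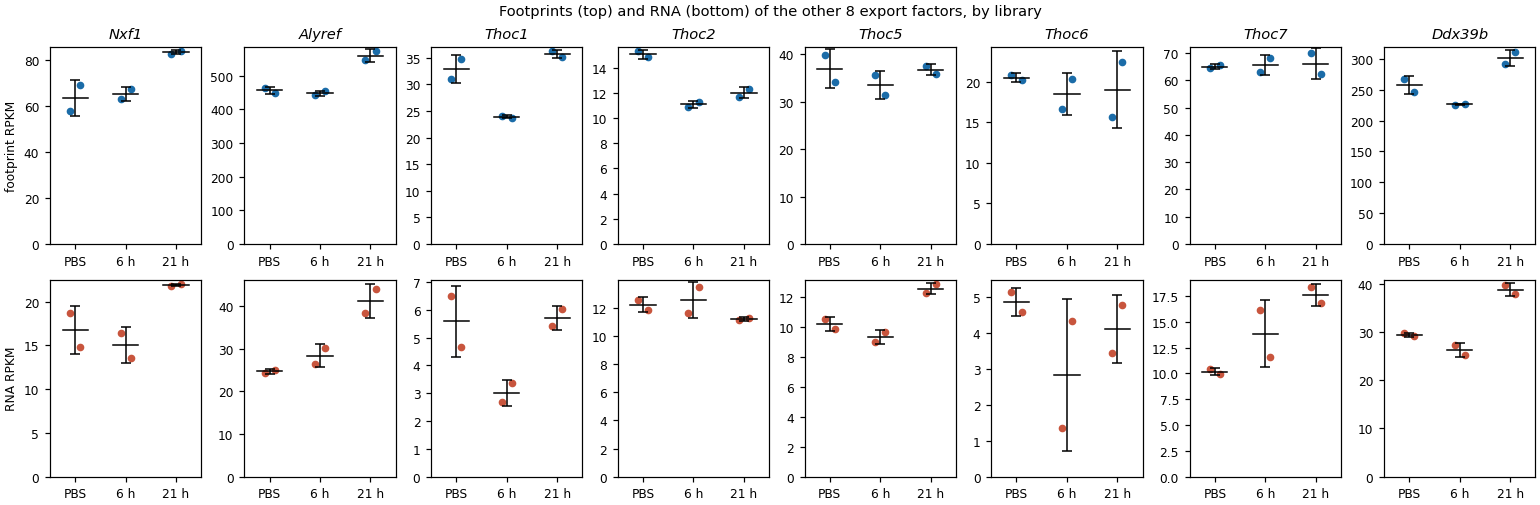
Footprint RPKM (top) and RNA RPKM (bottom) of the other 8 genes in each library with PBS and after 6 or 21 h of Cis. Points are libraries and bars the mean ± SD (n = 2), with each vertical axis starting at 0. Alyref, Ddx39b and Nxf1 have their highest points at 21 h in both rows, Thoc1 has its lowest points at 6 h in both, and Thoc7 climbs in RNA from 9.93 to 18.3 RPKM while its footprints stay at 62.2 to 70.0.

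In the order of the 9 genes by footprint level, Nxt1 moved up after Cis. At 21 h Nxf1 (83.3 RPKM) also passed Thoc7 (66.1 RPKM), without overlap, and the other genes kept their order. With PBS, the means fell from Alyref (456.0 RPKM) and Ddx39b (257.4) to Thoc7 (65.0), Nxf1 (63.4), Nxt1 (56.2), Thoc5 (37.0), Thoc1 (32.9), Thoc6 (20.5) and Thoc2 (15.1). Thoc7 and Nxf1 overlapped, as did Thoc5 and Thoc1. Nxt1 was the fifth of the 9 with PBS and the third at 6 and 21 h, where both of its libraries lay above those of Thoc7 and Nxf1. In RNA, Ddx39b (29.4 RPKM) and Alyref (24.7) were also the highest with PBS, ahead of Nxf1 (16.8) and Nxt1 (14.3), which overlapped. Nxt1 was the fourth in RNA with PBS and the sixth at 6 and 21 h. Other genes moved as well, with Thoc7 going from rank 7 with PBS to rank 4 at 6 and 21 h. The mean of Alyref passed that of Ddx39b at both times, with overlapping libraries.

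Counted over the 9 genes, few changes passed. At 6 h, 0 of the 8 genes other than Nxt1 passed in footprints, against 2.04% of all mRNAs tested, and their changes ran from -0.46 to 0.03. Nxt1, chosen through a contrast with the same PBS libraries, would make 1 of 9 (11.1%). At 21 h, Nxf1 and Alyref passed in footprints among the 8 genes other than Nxt1, both higher, against 39.1% of all mRNAs in either direction and 18.9% higher. Nxt1, whose choice used this time point, would make 3 of 9 (33.3%). The changes of the other 6 ran from -0.35 to 0.19. In RNA at 6 h, 0 of 9 passed (limma), 0 with voom, and 2 had an unadjusted p under 0.05, against 0% and 11.5% of all mRNAs. In RNA at 21 h, 2 of 9 passed, Alyref and Thoc7, both higher, against 23.8% of all mRNAs in either direction and 11.6% higher, and the others ran from -0.31 to 0.31.

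In TE at 6 h, 0 of 9 passed (limma), 0 with voom, and 4 had an unadjusted p under 0.05, against 0% and 7.64% of all mRNAs. Of these, Alyref, Thoc2 and Thoc7 lay lower. Nxt1 lay higher, in a contrast that shares its PBS libraries with the one used to choose it. In TE at 21 h, where Nxt1 was chosen from among the 0.409% of mRNAs past the threshold, 0 of the other 8 passed (limma), 0 with voom, and their changes ran from -0.69 to 0.15. Of these 8, Alyref and Thoc7 had an unadjusted p under 0.05, against 12.7% of all mRNAs. Between 6 and 21 h, a comparison added after the values had been seen, 3 of the 8 genes other than Nxt1 differed in footprints, Alyref, Thoc1 and Ddx39b, against 30.7% of all mRNAs, and 1 of them in RNA, Ddx39b, against 15.7%. Nxt1 footprints were higher at 21 h in both libraries, which its choice had used. Alyref exceeded its 6 h footprints by 0.30 on the log2 scale (limma, SE 0.07, adjusted p = 0.0166), and this call was lost without 6 h replicate 1 (0.113), 6 h replicate 2 (0.0896) or 21 h replicate 2 (0.0691). All 3 footprint calls were lost without 6 h replicate 1 and also without 6 h replicate 2. In RNA, 4 of 9 differed when the RPKM were not scaled between libraries, which moved the median of all mRNAs by 0.14 on the log2 scale.

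**Figure D3:**
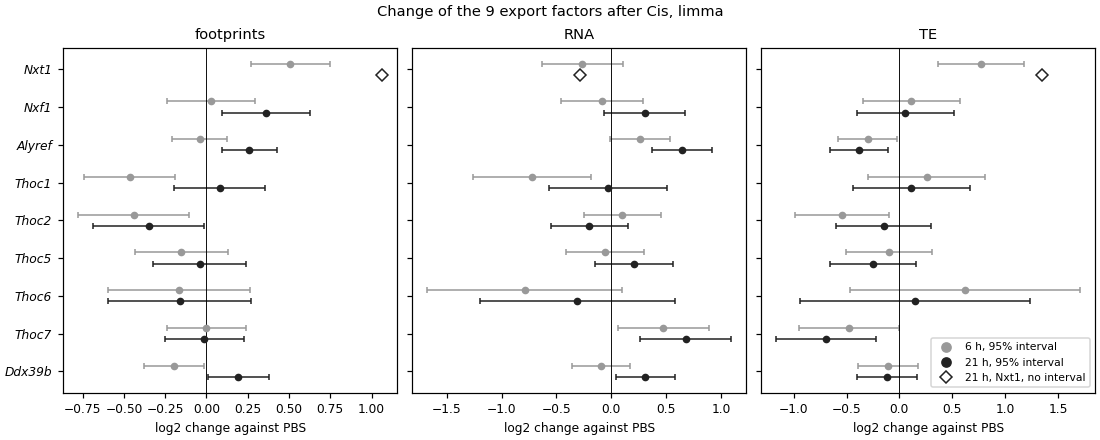
Log2 change against PBS of the 9 genes (vertical axis) in footprints, RNA and TE (horizontal axes, limma) at 6 h (grey) and 21 h (black). Points are estimates and bars 95% confidence intervals, with Nxt1 at 21 h drawn as an open diamond without interval. Nxt1 lies far to the right in TE at 21 h (1.35), where the other 8 lie between -0.69 and 0.15.

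The 5 mRNAs whose pattern over the 12 libraries was most like that of Nxt1 were Fau (Pearson's r = 0.96), Serpinb6a (0.94), Smyd5 (0.93), Imp3 (0.92) and Rabggtb (0.92). The measure was the log2 value minus the mean of the PBS libraries of the same assay, among 5574 mRNAs with a mean of at least 5 RPKM in both assays. The libraries share their controls and these are the highest of many values, so the correlations are a description. At 21 h, the footprints of these genes changed by 0.23 (Serpinb6a) to 0.61 (Imp3) on the log2 scale and their RNA by -0.43 (Smyd5) to -0.05. Nxt1 had the larger amplitude, at 1.06 in footprints. It was chosen for its TE change at 21 h, and the correlation ignores amplitude, so this difference is no result. Of the export factors that met the same level, Nxf1 had r = 0.42 with Nxt1, Ddx39b 0.034, Alyref -0.27, Thoc5 -0.40, Thoc7 -0.61 and Thoc2 -0.67.

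A wider list of 44 other genes of nuclear RNA export was read in the same way, of which 43 were read in 1 or more libraries and 41 were tested in footprints. At 6 h, 1 of 41 passed in footprints (2.44%, near the 2.04% of all mRNAs), Sarnp, an RNA-binding component of TREX, which fell by 0.55 on the log2 scale (limma, SE 0.09, adjusted p = 0.0290). No gene of the list passed there without PBS replicate 1 or 2 or without 6 h replicate 1 or 2 of the footprints. At 21 h, 14 of 41 were higher and 2 lower (39.0% in all, near the 39.1% of all mRNAs). The share called higher was 34.1%, against 18.9% of all mRNAs. Fewer genes of the list were called higher without PBS replicate 1 or without PBS replicate 2. The share of all mRNAs called higher in those refits was not counted, so whether the excess holds there is not known. The median change of the list was 0.20 on the log2 scale and that of all mRNAs 0.0063. The largest rises were in Alyref2 (1.22), a close relative of Alyref, Casc3 (0.95), a subunit of the exon junction complex that splicing leaves on mRNA, Ddx19b (0.89), a helicase that releases mRNA at the pore, Nxt2 (0.77), the relative of Nxt1, and Phax (0.59), the export adaptor of small nuclear RNA. The falls were in Cetn3 (-0.57), listed for its relation to the TREX-2 subunit Cetn2, and in Ran (-0.42), the GTPase of transport by karyopherins.

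In RNA at 21 h, 7 of 40 were higher and 1 lower (20.0% against 23.8% of all mRNAs, and 17.5% higher against 11.6%), with a median of 0.18 against 0.017. The rises were led by Ddx19a (0.92), Nup88 (0.89), Casc3 (0.77), Ncbp2 (0.71), a subunit of the nuclear cap-binding complex, and Magoh (0.63), and Ran fell by 0.26 on the log2 scale. In RNA at 6 h, 0 of 40 passed (limma), 0 with voom, and 4 of 40 had an unadjusted p under 0.05, against 11.5% of all mRNAs. In TE, 0 of 40 passed at 6 h and 0 at 21 h (limma and voom), with an unadjusted p under 0.05 in 4 of 40 (against 7.64% of all mRNAs) and 7 of 40 (17.5%, against 12.7%). Over the 17 alternatives, the footprint count at 21 h ran from 10 to 19 and the RNA count from 3 to 14. The footprint count was 10 without PBS replicate 2, and the RNA count was 3 without PBS replicate 2 and 5 without 21 h replicate 2.

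The relatives of the 9 genes differed among themselves. Nxt2 footprints were 11.6 and 10.8 RPKM with PBS, 11.8 and 10.5 at 6 h, and 19.6 and 20.2 at 21 h, on 21 to 43 reads (adjusted p = 0.00435 at 21 h from limma). Unlike Nxt1, its 6 h libraries lay at the PBS level, and its RNA lay higher at 21 h (4.75 and 4.16 RPKM) than with PBS (3.21 and 1.22), with 9 to 28 reads and an adjusted p of 0.112 (limma). Nxt2 footprints relative to those of Nxt1 were 0.20 with PBS in both libraries, 0.14 in both at 6 h, and 0.17 and 0.16 at 21 h. Alyref2 rose on 5 and 9 footprint reads with PBS, 18 and 13 at 6 h and 18 and 10 at 21 h, and its RNA was too low to be tested. Reads that match both Alyref and Alyref2 could be counted for either, and how these were treated is not stated, which holds for Ddx39a and Ddx39b as well. Ddx39a footprints were 156.9 and 136.3 RPKM with PBS, 144.8 and 144.5 at 6 h, and 162.4 and 183.9 at 21 h, and passed in no comparison. Its footprints relative to those of Ddx39b lay between 0.55 and 0.64 in all 6 libraries.

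Thoc3, the THO subunit outside the 9 genes, had 26.5 and 25.5 footprint RPKM with PBS, 30.2 and 30.9 at 6 h, and 34.0 and 35.9 at 21 h. The 3 groups did not overlap, and the rise at 21 h was 0.39 on the log2 scale (limma, SE 0.11, adjusted p = 0.0263). Its RNA stayed between 10.1 and 11.3 RPKM. Within the THO complex, Thoc3 was thus the single subunit called higher in footprints at 21 h, and no difference between subunits was tested.

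**Figure D4:**
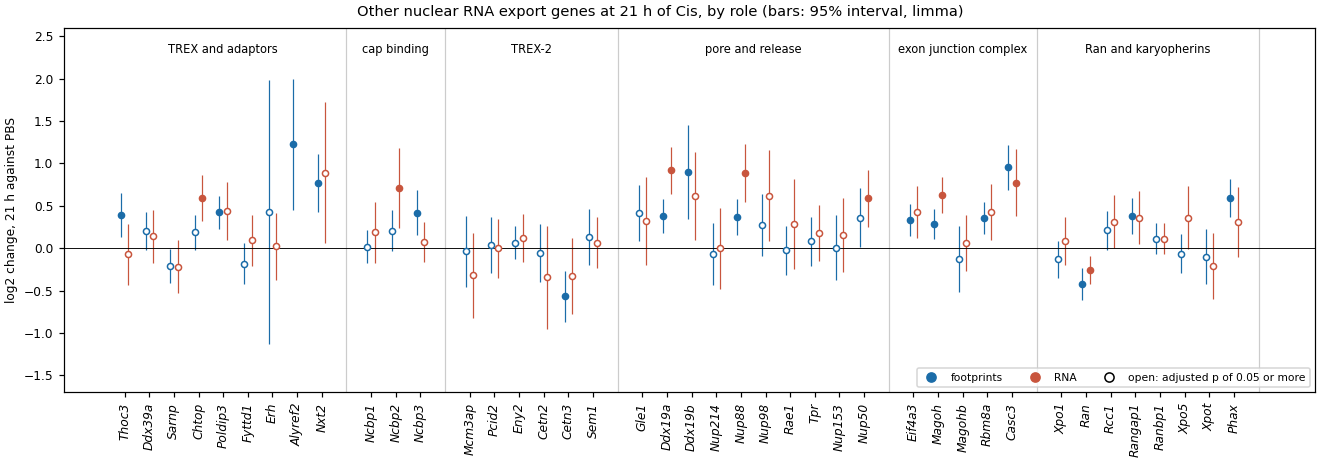
Log2 change at 21 h against PBS (vertical axis, limma) of the other nuclear RNA export genes tested in footprints, grouped by role (horizontal axis), in footprints (blue) and RNA (red). Points are estimates, bars 95% confidence intervals, and filled points have an adjusted p under 0.05. Filled footprint points lie above 0 for 14 genes and below 0 for Cetn3 and Ran.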

How the data were processed

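For each of 12 libraries (footprints and RNA-seq, PBS, 6 h and 21 h, 2 each), the authors deposited RPKM per representative transcript, without pooling. Unlisted transcripts were set to 0. The submitters' processing notes name cutadapt, STAR and GRCm39, with versions not given in the sources used here. Multiplied by length, 100% of the values gave whole reads (tolerance 0.001). Libraries of an assay were brought to a common scale with median-of-ratios factors, mRNAs with a mean of at least 1 RPKM were kept (10383 for footprints, 9443 for RNA and 9295 for TE), and limma 3.58.1 (R 4.3.3) was run on log2(RPKM + 0.5) (lmFit, eBayes with trend, all 3 groups of the assay, two-sided, Benjamini-Hochberg over all mRNAs, threshold 0.05). TE was the interaction of assay and treatment. The pseudocount makes fold changes of low genes too small. With 2 against 2 libraries, an exact permutation test cannot go below 0.333. Means ± SD are of deposited RPKM.

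The members and gene lists were chosen with earlier results of these data known. All 9 members are named, with log2 changes given for Nxt1 and for members that passed. Of the wider list, at most the 5 largest changes per comparison and direction are named, plus Thoc3, Ddx39a, Alyref2 and Nxt2, and of the genes most like Nxt1 the first 5. The comparison of 21 h with 6 h was chosen after seeing the data. The alternatives tried were a pseudocount of 0.1 or 1, a filter of 5 RPKM or none, no scaling, quantile normalization, no trend, only the groups compared, a replicate block, an adjusted p under 0.1, voom on the recovered reads with TMM factors (1238 calls for footprints at 6 h, 4644 at 21 h, 253 and 3069 for RNA, 13 and 153 for TE), and each library left out. The fits were tested on simulated data. Overlaps of genes and promoters were taken from RefSeq on GRCm38.p6, by symbol. Python 3.11.15 with matplotlib 3.10.9, numpy 2.4.6 and pandas 2.3.3 was used for reading and plotting.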

Additional observations from a re-analysis of the deposited data

Results flagged for a closer look

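Apart from Nxt1, whose 21 h values led to its choice and are not tested, 3 genes differed between the 6 h and the 21 h libraries by a test of that difference (limma, Benjamini-Hochberg adjusted). Alyref had 0.30 more footprints at 21 h on the log2 scale (limma, SE 0.07, adjusted p = 0.0166), Thoc1 0.54 (SE 0.12, 0.0111) and Ddx39b 0.39 (SE 0.08, 0.00781). Ddx39b RNA was higher by 0.40 (limma, SE 0.12, adjusted p = 0.0476). For Alyref and Ddx39b, in footprints and for Ddx39b also in RNA, the libraries at 6 h and 21 h lay on opposite sides of both PBS libraries after scaling. In Thoc1 they did not. The share of all mRNAs that lie this way was not counted, so this position is a description only. Groups of 2 libraries are too small to be searched for single libraries that stand apart. No cause was tested.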

How the results depend on the processing

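No change of a member that was followed through the alternatives reversed its sign (250 values, of which 190 kept their side of the threshold and 60 lost it). Only Nxt1 and changes past the threshold in the main fit were followed, so reversals were unlikely from the start. The kept values include Nxt1 changes that never passed (RNA at both times and TE at 6 h). They also include its 21 h values, which led to its choice. The number of members past the threshold, Nxt1 included, moved as follows under these alternatives, and the cause was not tested. For footprints at 6 h (1), it was 0 with a pseudocount of 0.1, no filter, quantile normalization, no trend or the replicate block, 2 with an adjusted p under 0.1 and 3 with voom, and 0 to 1 with a library left out. For footprints at 21 h (3), it was 1 with no trend or only the groups compared, 2 with no filter or quantile normalization, 4 with voom, 5 with an adjusted p under 0.1, and 1 to 2 with a library left out. For RNA at 21 h (2), it was 1 with no filter, quantile normalization, no trend or voom, 3 without scaling or with an adjusted p under 0.1, and 1 to 2 with a library left out. For TE at 21 h (1, Nxt1), it was 0 with no trend, only the groups compared or the replicate block, and 0 to 1 with a library left out. For footprints at 21 h against 6 h (4), it was 2 with no trend, 5 without scaling, with only the groups compared, an adjusted p under 0.1 or voom, and 0 to 5 with a library left out. For RNA at 21 h against 6 h (1), it was 0 with no filter, quantile normalization, no trend, only the groups compared or the replicate block, 4 without scaling, 3 with an adjusted p under 0.1 or with voom, and 0 to 1 with a library left out. Without scaling, the share of higher calls went from 47.8 to 70.6% in that comparison and from 63.2 to 52.9% for TE at 21 h over all mRNAs. Libraries with the same replicate number did not deviate together (r = -0.014 to 0.021 across genes). Such values cannot exclude that the numbers pair the libraries, since noise of each library alone would hide it. Depth limits RNA most, with 4 to 43 reads per library for Nxt1, Thoc6 and Thoc7, and 22 and 32 reads for Thoc1 at 6 h.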
